A study of Vitis vinifera with 9 samples.

Results

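The 3 arrays of grape leaves sampled 12 h after UV-C irradiation were compared with the 3 arrays of leaves sampled 6 h after it, which are 6 of the 9 arrays of the series. The arrays of each time were taken by their sample titles, and the other 3 arrays, of leaves before irradiation (0 h, control), served to say whether a change between 6 h and 12 h went on, reversed or started. Detached leaves of 30 days from field-grown 'Hongbaladuo' vines, a table grape of Vitis vinifera, were irradiated on the abaxial surface at 6 W per square metre for 10 min, after a short time in the dark at 25 °C, and were then kept in flasks. Each of the 3 replicates of a time held 6 leaves and filled 1 Affymetrix array of the V. vinifera genome. The control leaves had neither the irradiation nor the hours in the flask. No leaves kept in the flask without UV-C were sampled at 6 h or 12 h, so the later hours after UV-C, the longer time since detachment and the later time of day cannot be told apart. Whether the leaves were in light or darkness after the irradiation is not given in the sources used here.

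UV-C is absorbed by nucleic acids and damages them, and its energy also reaches proteins, membranes and the photosystems. Leaves answer within hours with genes of the phenylpropanoid pathway, which in grapevine ends in resveratrol and other stilbenes, and with defence genes, while genes of photosynthesis are usually turned down. A leaf that is lost or cut off also dismantles its chloroplasts, exports or burns the nitrogen and carbon set free, and relies on the proteasome and on chaperones to clear or refold damaged proteins.

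The values are RMA signals, which are background-adjusted and quantile-normalized array intensities. Of 16436 probe sets tested with limma over all 9 arrays, 384 (2.34%) were called higher and 746 (4.54%) lower in the leaves of 12 h, at an adjusted p under 0.05 and a change of at least 2-fold, together 6.88%. At any fold, 15.6% were higher and 13.1% lower at the same adjusted p, and the 3 arrays of each time did not overlap for 25.0% of the probe sets in the higher direction and for 20.1% in the lower. The median log2 change over all probe sets was 0.05. Of the 1130 called probe sets, 10 had overlapping arrays, 62 were at least 4-fold higher and 83 at least 4-fold lower. The 2-fold limit cuts through a continuous range, with 117 called probe sets within 0.15 log2 units inside it on the higher side and 234 within that width outside it that passed the adjusted p, and 172 and 225 on the lower side. The error given after ± is the standard error of a log2 change. Each group holds 3 replicates, and the p-values set a difference between group means against the spread between these samples.

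Gene names came from the annotation of 10471 probe sets that the authors' comparison tables list, and 3.45% of these were called higher and 6.95% lower, with a median log2 change of 0.02. The gene lists below were drawn from these annotated probe sets, so their 2-fold counts stand beside these shares. The arrays of 6 h correlated with each other at 0.992 to 0.995 over all probe sets, those of 12 h at 0.992 to 0.996, and arrays of different times at 0.972 to 0.98. Markers of leaf mesophyll (Rubisco, Rubisco activase, chlorophyll a/b-binding proteins and carbonic anhydrases) had a high summed signal at every time. Single members were low at 12 h, such as a probe set of the antenna protein LHCA1 with 154, 97.9 and 149. Some of these markers also count in the photosystem list below. The summed signal of the 19 mesophyll probe sets was 159903 to 185418 on the control arrays, 100763 to 108985 at 6 h and 42087 to 51134 at 12 h. Of the 19, 13 were lower at 12 h than at 6 h, 8 of them already lower at 6 h than in the control, and none was higher. Markers of other tissues were few. Of 10 xylem probe sets 1 was lower, and of 3 phloem probe sets none was called. At any fold, 4 of the xylem and 1 of the phloem probe sets passed as lower. Of 3 epidermis and cuticle probe sets 1 was lower, and of 5 pollen and flower probe sets 2 were lower. The guard cell K+ channel SIRK was lower. In whole leaves, fewer cells of a type and less RNA per cell cannot be told apart, and the part of the mesophyll markers in the results below was not tested.

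Most probe sets that had changed by 6 h were not called again. Of 1956 probe sets called higher at 6 h than in the control (11.9% of those tested), 88.4% were not called between 6 h and 12 h, and of 2411 called lower (14.7%), 81.8% were not. A change went on in the higher direction for 123 probe sets and in the lower direction for 404. It reversed for 103 probe sets that had been higher at 6 h and for 34 that had been lower. It started after 6 h, with a call against the 6 h arrays and against the control but none at 6 h, for 158 higher and 205 lower probe sets. The median log2 change from control to 6 h to 12 h was 2.28 and then 3.99 for those that went on higher, and −1.88 and then −3.37 for those that went on lower. These counts have no test of their own, since the 6 h arrays enter both changes with opposite signs and both comparisons with the control share its arrays.

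**Figure D1:**
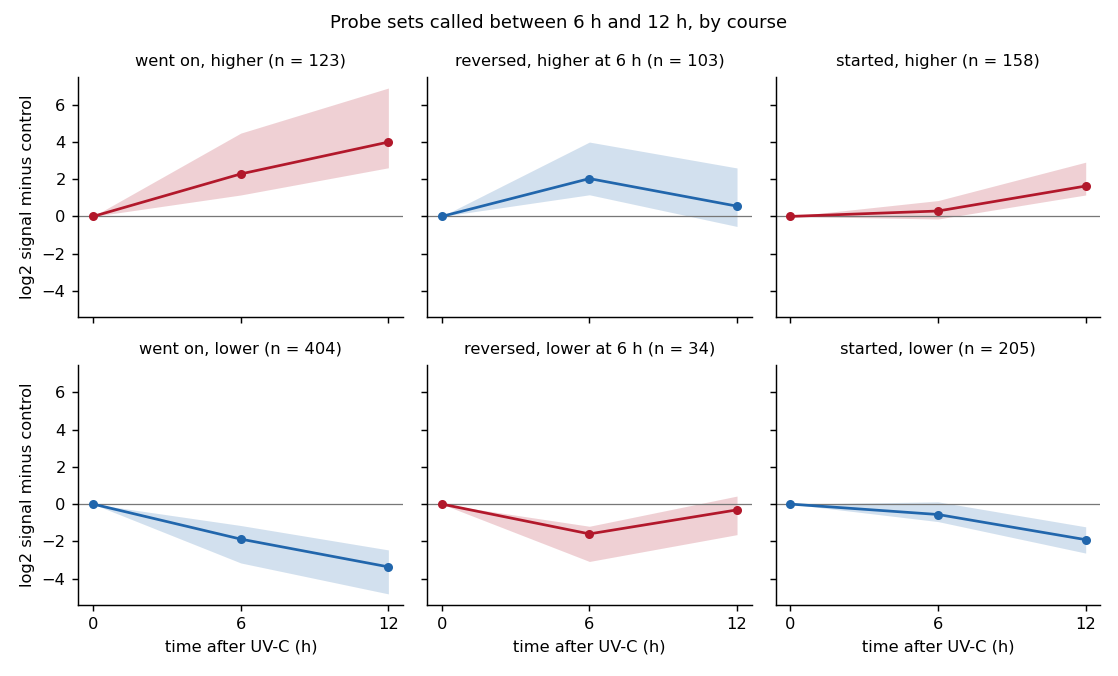
Log2 signal minus the control (y axis) at 0, 6 and 12 h after UV-C (x axis) for the 6 courses of the called probe sets; points are medians over probe sets and the bands span their 10th to 90th percentile, red where 12 h was higher than 6 h and blue where it was lower. The 404 probe sets that went on lower reached a median of −3.37 at 12 h, and the 103 that reversed after a rise came back to a median of 0.55.

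Genes of the photosystems and their antennae fell between 6 h and 12 h, with the lowest median of the gene lists other than the cell type markers. Of 51 such probe sets, 30 were lower and 1 was higher, and their median log2 change was −1.26 against 0.05 over all probe sets. Of the 30, 17 had already been called lower at 6 h, and 13 had no call at 6 h and were called lower than the control at 12 h. The median of the list was −0.79 at 6 h and −2.19 at 12 h against the control. A chlorophyll a/b-binding protein of photosystem II (LOC100241745 and LOC100252004, which share a probe set), which holds the chlorophyll of the antenna, had a signal of 14053, 11207 and 12113 on the control arrays, 6819, 4000 and 5197 at 6 h and 753, 476 and 581 at 12 h. No array of 12 h came near those of 6 h, and the fall between them was 8.8-fold (log2 −3.14 ± 0.22, adjusted p = 3.8e-05).

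LHCA1, an antenna protein of photosystem I, had 3128, 2140 and 2524 at 6 h and 461, 287 and 459.6 at 12 h, from 9939, 9113 and 10095 in the control. It fell at both steps, and the later fall was 6.52-fold (log2 −2.71 ± 0.20), with a log2 change of −2.67 on its second probe set. Other members held on longer. The photosystem II antenna protein LOC100246867 had 18806, 15663 and 17395 at 6 h, a log2 change of −0.28 from the control, and 7772, 5549 and 6029 at 12 h, a further −1.43. The photosystem II 10 kDa polypeptide (LOC100243967) was at 22717 to 24446 at 6 h and 18822 to 20127 at 12 h, a log2 change of −0.28 that passed the adjusted p but not the 2-fold limit. The list's only higher member (LOC100268005) is titled an oxygen-evolving enhancer protein but carries another enzyme's name in the study's lists, so its identity is uncertain.

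Genes of carbon fixation and of chlorophyll synthesis moved in the same direction with smaller medians. Of 33 probe sets of the Calvin cycle and photorespiration, 8 were lower and none was higher (median log2 −0.49), and of 15 of chlorophyll synthesis 4 were lower and none was higher (median −0.49). Rubisco activase (LOC100266698), which keeps the carbon-fixing enzyme active, had 7356, 5196 and 6293 in the control, 1139, 2354 and 2184 at 6 h and 577, 365 and 288 at 12 h. Every array of 12 h lay below every array of 6 h, with a fall of 4.59-fold (log2 −2.2 ± 0.31). The H protein of glycine cleavage (LOC100259229), a photorespiratory enzyme of mitochondria, fell 3.49-fold (log2 −1.80 ± 0.11). CHLH, the magnesium chelatase subunit that binds the chlorophyll precursor, had 4441, 3454 and 4840 in the control, 1472, 1517 and 1651 at 6 h and 491, 456 and 361 at 12 h. It fell at both steps, with log2 changes of −1.44 and −1.84. Glutamyl-tRNA reductase (LOC100259052), which opens tetrapyrrole synthesis, fell 2.83-fold between 6 h and 12 h. A protochlorophyllide reductase (LOC100255647) followed another course, with 409, 485 and 434 in the control, 1105, 739.6 and 902 at 6 h and 391, 466 and 248 at 12 h. It rose first and came down to or below the control values.

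A chloroplast fructose-bisphosphatase, a step of the Calvin cycle, is the title of 3 probe sets for which the annotation gives no gene symbol. The first had 149, 119 and 116 at 6 h and 8.37, 8.78 and 8.82 at 12 h, a fall of 14.7-fold (log2 −3.88 ± 0.49). On the others the log2 changes were −3.35 ± 0.48 and −2.97 ± 0.43, with all 12 h arrays between 11.5 and 20.1. Control replicate 3 was low on all 3 probe sets (151 against 759 and 619 on the first), so the change from control to 6 h is less certain than the later fall, which rests on tight arrays. Values this low lie near the lower end of the signal range, and no detection call was used.

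**Figure D2:**
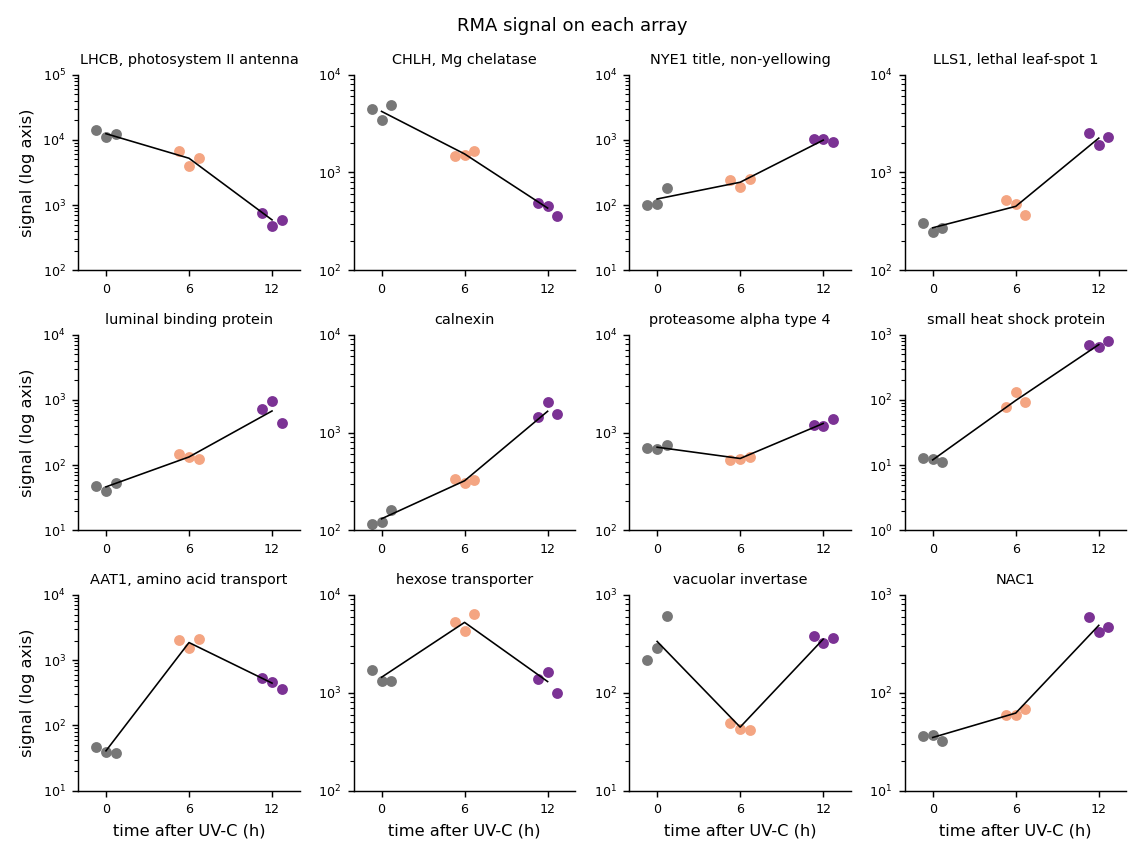
RMA signal (y axis, log scale) of 12 genes on each of the 9 arrays at 0, 6 and 12 h after UV-C (x axis); points are arrays, set side by side at each time, lines join the geometric means, and each panel has its own y axis. The light-harvesting and chlorophyll synthesis genes fall at both steps, the hexose transporter and AAT1 peak at 6 h, and the vacuolar invertase is lowest at 6 h.

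Of the genes that take chlorophyll apart, 2 probe sets went the other way, which were chosen after their values were seen. A gene titled Non-yellowing 1 (LOC100265112), whose Arabidopsis counterpart is needed for leaves to lose their green colour, had 101, 103 and 183 in the control, 242, 187 and 247 at 6 h and 1036, 1020 and 912 at 12 h. All 12 h arrays were far above all others, and the rise from 6 h was 4.42-fold (log2 2.14 ± 0.22, adjusted p = 0.00017). The homolog of lethal leaf-spot 1 (LOC100256831), in maize an oxygenase that opens the chlorophyll ring, had 302, 246 and 271 in the control, 526, 471 and 368 at 6 h and 2557, 1922 and 2291 at 12 h. Its rise after 6 h was 4.98-fold (log2 2.32 ± 0.16). Neither gene was called at 6 h. The 6 other probe sets with titles of chlorophyll breakdown or senescence did not share this: none was higher, the senescence-associated protein sen1 (LOC100259157) was 2.81-fold lower, and their median log2 change was −0.56.

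The protein-making machinery of the chloroplast and of the cytosol moved apart. Ribosomes of the 2 compartments have different proteins, and many of the plastid's are encoded in the nucleus. Of 33 probe sets of plastid ribosomal proteins, 10 were lower and 1 was higher (median log2 −0.57), and all 10 had already been lower at 6 h. The plastid ribosomal protein L35 (LOC100252143) had 4797, 4802 and 5010 in the control, 1329, 1030 and 1328 at 6 h and 447, 503 and 399 at 12 h, a fall of 2.73-fold at the later step. The plastid elongation factor Tu (LOC100244975), which brings aminoacyl-tRNA to that ribosome, had 2366, 2529 and 2435 at 6 h and 661, 650.3 and 390.2 at 12 h. It fell 4.43-fold (log2 −2.15 ± 0.19). The exception was a probe set titled chloroplast ribosomal protein L24 (LOC100257879), with 279, 261 and 287 at 6 h and 524, 603 and 574 at 12 h (log2 1.04 ± 0.12), whose call was lost without 12 h replicate 2 (log2 1.00).

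Among 185 probe sets of ribosomal proteins whose titles name no plastid, 13 were higher and 5 lower, and the median log2 change was 0.65. At any fold, 146 of the 185 passed as higher and 10 as lower, beside 15.6% and 13.1% of all probe sets, and 169 had a positive change. Against the control the list's median was 0.09 at 6 h and 0.78 at 12 h. Ribosomal protein S13 (LOC100242961) had 611, 709 and 916 in the control, 1077, 1121 and 949.9 at 6 h and 2221, 2359 and 2850 at 12 h. All arrays of 12 h were above those of 6 h, by 2.35-fold (log2 1.23 ± 0.16). A 40S ribosomal protein (LOC100241243) had 1459, 1686 and 1281 at 6 h and 3229, 3273 and 3895 at 12 h. It rose 2.35-fold. All 5 members that fell had also fallen at 6 h, among them L10-like (LOC100245108), with a log2 change of −1.35, L5 (LOC100251632) with −1.21 and S17 (LOC100261418) with −1.15. Their titles do not say in which compartment they work.

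Other genes of protein synthesis rose by less. Of 60 translation factors, 2 were higher and 1, the plastid factor Tu above, was lower, beside 3.45% and 6.95% of the annotated probe sets. At any fold 29 passed as higher, beside 15.6% of all probe sets. The median log2 change of the list was 0.34. Elongation factor 1-gamma (LOC100246571), a subunit of the complex that reloads elongation factor 1-alpha, had 560, 580.5 and 476 at 6 h and 1122, 1209 and 1299 at 12 h. It had been level with the control at 6 h and rose 2.25-fold after it. Of 27 aminoacyl-tRNA synthetases none was called, with a median of 0.41.

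Proteasome subunits rose as a body, each by a modest amount. The 26S proteasome is the particle that degrades ubiquitin-tagged proteins, with a 20S core and a regulatory cap. All 44 probe sets had a positive change, from 0.24 to 1.2 on the log2 scale with a median of 0.68. At any fold 42 passed as higher, beside 15.6% of all probe sets. For 43 of the 44 the arrays did not overlap, beside 25.0% of all probe sets in the higher direction. Only 3 reached 2-fold, beside 3.45% of the annotated probe sets. At 6 h the same list had a median of −0.05 against the control, with 1 probe set higher, and at 12 h 0.63. The core subunit alpha type 4 (LOC100251448) had 702, 686 and 742 in the control, 525, 543 and 565 at 6 h and 1184, 1176 and 1370 at 12 h. It was lowest at 6 h and highest at 12 h on every array, and the later rise was 2.28-fold (log2 1.19 ± 0.1, adjusted p = 5.8e-05). Among the ATPases of the cap, RPT6a (LOC100254957) had 297, 312 and 266 at 6 h and 585, 585 and 722 at 12 h, and RPT5a (LOC100256329) had 96.5, 72.3 and 72.5 and then 174, 209.8 and 170. Their log2 changes were 1.11 and 1.20. Of 43 ubiquitin ligases of the RING and U-box type, which tag the proteins to be degraded, none was higher and 1 was lower, with a median of −0.03.

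**Figure D3:**
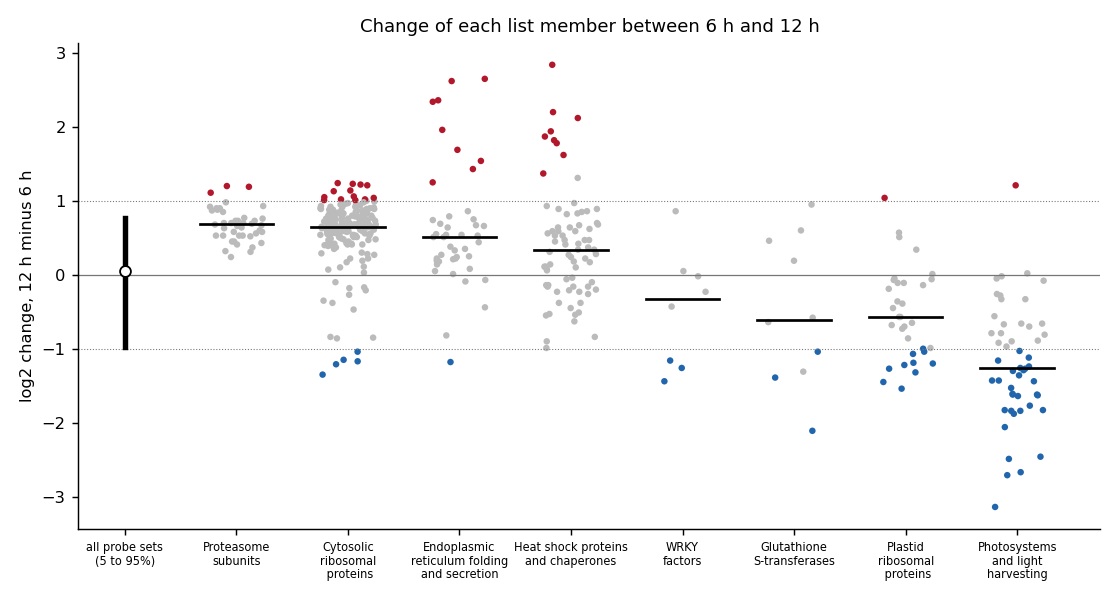
Log2 change from 6 h to 12 h (y axis) of every member of 8 gene lists, with the median as a bar, called members in red (higher) or blue (lower) and the dotted lines at 2-fold; the bar at the left spans the middle 90% of all probe sets around their median of 0.05. The 44 proteasome subunits all lie above 0, and 30 of the 51 photosystem and light-harvesting members are called lower.

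Chaperones of the endoplasmic reticulum, where secreted proteins fold, rose. Of 44 probe sets of folding and secretion there, 9 were higher and 1 was lower (median log2 0.51), 5 of the 9 had already risen at 6 h, and at 12 h 26 were higher than in the control, beside 14.7% of all probe sets. The luminal binding protein (LOC100253826), the Hsp70 of this compartment, had 48.1, 39.8 and 53 in the control, 147, 133 and 123 at 6 h and 729, 962 and 445 at 12 h. It rose 5.06-fold between 6 h and 12 h (log2 2.34 ± 0.24). Calnexin (LOC100259611), which holds newly made glycoproteins until they fold, had 117, 122 and 160.2 in the control, 334, 307 and 326 at 6 h and 1432, 2051 and 1533 at 12 h. It rose at both steps, with a log2 change of 2.36 ± 0.16 at the later one and 2.62 and 2.65 on 2 other probe sets. A probe set titled calreticulin (LOC100246378), a related lectin, went the other way, from 8180, 7745 and 8516 at 6 h to 3731, 4115 and 3051 at 12 h.

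Of 76 probe sets of heat shock proteins and chaperones, 9 were higher and none was lower, with a median of 0.34. Of the annotated probe sets 3.45% were higher and 6.95% lower. The 17.6 kDa heat shock protein (LOC100261583), a small cytosolic chaperone that binds unfolded proteins, had 12.8, 12.4 and 11.1 in the control, 79.4, 131 and 91.6 at 6 h and 685, 647 and 791 at 12 h. Each step was larger than the spread of the arrays, and the later rise was 7.17-fold (log2 2.84 ± 0.17). A mitochondrial small heat shock protein (LOC100243757) had 233, 250.2 and 252 at 6 h and 1071, 1552 and 860.4 at 12 h (log2 2.2 ± 0.38). HSP81-1 (LOC100265661), an Hsp90, rose from 55.6, 40.6 and 81.2 to 251, 422 and 144. Brighter members of the list were already high and stayed so, among them HSC70-1 (LOC100254725), with 1030 to 1907 in the control, 12180 to 12852 at 6 h and 11955 to 15627 at 12 h.

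Respiration and the breakdown of amino acids gained several genes after 6 h. Of 78 probe sets of glycolysis, the citric acid cycle and respiration, 9 were higher and 5 lower (median log2 0.42). Of the annotated probe sets 3.45% were higher and 6.95% lower, so the lower count lay near that share. At any fold 45 of the 78 passed as higher, beside 15.6% of all probe sets. The alternative oxidase AOX2, which carries electrons past the proton-pumping part of the mitochondrial chain, had 300.4, 321 and 369 in the control, 232, 273 and 216 at 6 h and 723, 768 and 618 at 12 h. It was not called at 6 h and rose 2.93-fold after it (log2 1.55 ± 0.13). Mitochondrial malate dehydrogenase (LOC100253724) had 144, 146 and 146 at 6 h and 399.9, 416 and 303 at 12 h, and an aconitase (LOC100242027 and 2 others on the probe set) had 641, 496 and 552 and then 1258, 1646 and 1271. Both belong to the citric acid cycle, and they rose 2.54-fold and 2.47-fold. Pyruvate decarboxylase 1 (PDC1), the entry to ethanol fermentation, chosen after its values were seen, rose from 1341, 1538 and 1362 to 4863, 4462 and 5188. All 5 of the list's lower members were aldolases or malate dehydrogenases with high signals in the control, such as the aldolase LOC100262354, with 14002, 12160 and 13152 in the control, 4478, 4934 and 5451 at 6 h and 1428, 1715 and 977 at 12 h. Their titles do not exclude the chloroplast or the peroxisome, and 1 is titled glyoxysomal.

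Of 53 probe sets of amino acid breakdown and nitrogen remobilisation, 8 were higher and none was lower (median log2 0.28). Of the annotated probe sets 3.45% were higher and 6.95% lower. A branched-chain amino acid aminotransferase (LOC100247990), the first enzyme in the breakdown of leucine, isoleucine and valine and the last in their synthesis, had 475, 999 and 399.6 at 6 h and 7556, 6034 and 6464 at 12 h. These ranges were far apart, but the control ranged from 17.2 to 458, which widened the error of the joint fit (log2 3.53 ± 0.99, adjusted p = 0.024), and the call was lost without any of 6 h replicates 1 and 3 and the 3 replicates of 12 h (adjusted p = 0.058 to 0.077, log2 3.27 to 3.6). The E2 subunit of branched-chain keto acid dehydrogenase (LOC100244742), the next step of the breakdown, had 206, 199 and 256 at 6 h and 635, 588 and 467 at 12 h. It started after 6 h and rose 2.55-fold (log2 1.35 ± 0.14). An aspartate aminotransferase (LOC100256163) rose from 234, 491 and 176 to 918, 604 and 722.

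Most stilbene and phenylpropanoid genes were far above the control at both times. Of 22 probe sets, 18 were higher at 6 h and 19 at 12 h. Their median log2 changes against the control were 3.32 and 4.54. Between 6 h and 12 h 1 was called, as higher, beside 3.45% of the annotated probe sets called higher. The median change between the times was 0.23 on the log2 scale, 16 of the 22 were positive, and 6 passed as higher and 1 as lower at any fold. The called member, a stilbene synthase 2 probe set without a gene symbol, had 77, 128 and 75.9 at 6 h and 320, 327 and 345 at 12 h, a rise of 3.64-fold (adjusted p = 0.00093). A brighter probe set of stilbene synthase 2, the enzyme that makes resveratrol (LOC100246143 and 2 others on the probe set), had 152, 149 and 105 in the control, 23853, 23417 and 25755 at 6 h and 20892, 20054 and 20585 at 12 h. All 12 h arrays lay below the 6 h arrays, by a log2 change of −0.25 that did not pass (adjusted p = 0.23). Phenylalanine ammonia-lyase (LOC100241377), which opens the pathway, had 6013, 6338 and 5873 at 6 h and 8507, 7880 and 6077 at 12 h, and the arrays overlapped. Branches nearby did change. A flavonol synthase (LOC100267819), of the enzymes that make the UV-absorbing flavonols, had 266, 303 and 385 in the control and 621, 493 and 572 at 6 h. At 12 h it had 3130, 3828 and 2898, a rise of 5.83-fold after 6 h (log2 2.54 ± 0.16). Another flavonol synthase probe set in the study's list was far below the control at both times. A flavonoid 3-hydroxylase-like protein (LOC100263428) had 412, 386 and 219 in the control, 4659, 3796 and 5540 at 6 h and 1355, 1367 and 1064 at 12 h, and so came down 3.68-fold from its 6 h level. Of 33 flavonoid probe sets, 2 were higher and 4 lower, beside 3.45% and 6.95% of the annotated probe sets.

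Defence genes divided as well. A beta-1,3-glucanase (LOC100260160 and LOC100265368), which cuts fungal and plant glucans, had 91.4, 68.6 and 26.8 in the control, 2500, 4041 and 2824 at 6 h and 14064, 15567 and 15597 at 12 h. It rose a further 4.93-fold after 6 h (log2 2.30 ± 0.38). Pathogenesis-related protein 1 (LOC100242852), a secreted marker of salicylic acid responses, had 90.3, 82.3 and 56.6 in the control, 225, 458 and 222 at 6 h and 3286, 3014 and 2853 at 12 h, and rose 10.7-fold (log2 3.42 ± 0.28). A serine hydrolase-like protein (BIG8.1) had the tightest arrays, with 573, 609 and 642 at 6 h and 7559, 7195 and 7664 at 12 h, and rose 12.3-fold (adjusted p = 2.6e-07). The gene titled Germin 3 (LOC100259980), a secreted cupin protein, rose from 737, 1485 and 1040 to 10590, 6523 and 7962.

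Other defence genes fell in the same interval. Of 27 probe sets of pathogenesis-related and thaumatin-like proteins, 3 were higher and 5 lower, and of 29 chitinases and beta-1,3-glucanases 2 were higher and 3 lower. Beside these stand 3.45% higher and 6.95% lower of the annotated probe sets. Counts this small say little about the 2 lists as a whole. A thaumatin-like protein (LOC100262468) had 965, 877 and 2029 in the control, 7507, 2822 and 2412 at 6 h and 1147, 409 and 1015 at 12 h. Its 6 h arrays differed among themselves by more than 2-fold, but all 3 were above all 12 h arrays (log2 −2.25 ± 0.52, adjusted p = 0.011). Another beta-1,3-glucanase-like protein (LOC100256478) had 357, 435 and 554 in the control, 1026, 945 and 746 at 6 h and 460.2, 374 and 417 at 12 h. It had risen by 6 h and was back at the control by 12 h. GER6, a germin-like protein with high signals, fell from 8129, 7437 and 9924 to 2497, 3557 and 2993, while GER7 rose 126-fold.

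**Figure D4:**
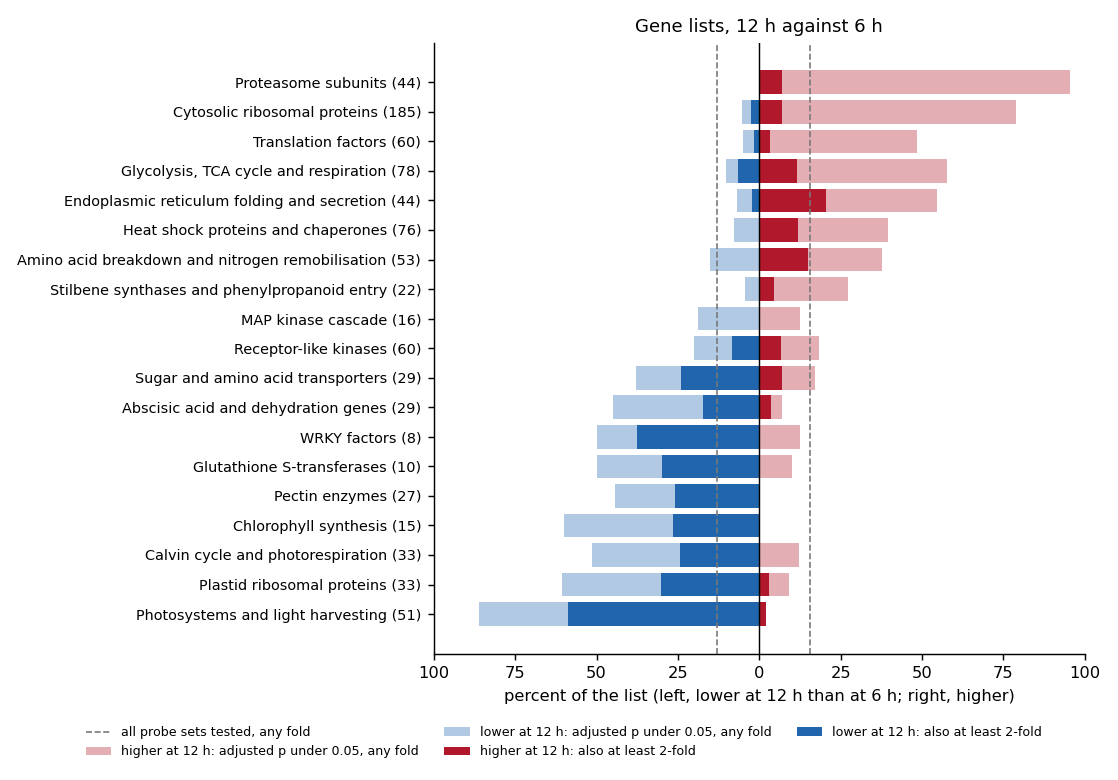
Percent of each of 19 gene lists (number of probe sets in parentheses) that was higher (right) or lower (left) at 12 h than at 6 h, at an adjusted p under 0.05 at any fold (pale) and also at least 2-fold (dark); dashed lines mark the same share over all probe sets tested at any fold, 15.6% higher and 13.1% lower. Proteasome subunits and cytosolic ribosomal proteins pass in most members but mostly under 2-fold, and photosystem genes pass and exceed 2-fold.

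The probe sets that reversed after a rise held transporters, detoxifying enzymes and regulators. The amino acid transporter AAT1 (LOC100263534) had 46.3, 39.2 and 37.5 in the control, 2003, 1554 and 2077 at 6 h and 533, 465 and 356 at 12 h. It came down 4.19-fold (log2 −2.07 ± 0.17, adjusted p = 6.6e-05) and was still 10.9-fold above the control. A hexose transporter (LOC100263644), which carries glucose and fructose across the plasma membrane, had 1695, 1326 and 1334 in the control, 5290, 4257 and 6397 at 6 h and 1373, 1616 and 997 at 12 h. On 2 of the 3 arrays it was back among the control values, and on the third below them. A jasmonic acid carboxyl methyltransferase, which makes the volatile methyl jasmonate, had 28.5, 21.4 and 14.2 in the control, 471, 758 and 391 at 6 h and 97.7, 128 and 69.8 at 12 h. It fell 5.43-fold and remained above the control. In all, 36 of the 103 probe sets of this course were still called higher than the control at 12 h, 65 were not called and 2 were called lower, beside 17.5% of all probe sets called lower at that time.

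Glutathione S-transferases join glutathione to reactive compounds and mark them for export. Of 10 probe sets, 7 were higher at 6 h and 4 at 12 h against the control, beside 11.9% and 14.7% of all probe sets. Between the times 3 fell and none was called higher (median log2 −0.61). GST2 (LOC100265903) had 399, 373 and 365 in the control, 7509, 4870 and 6120 at 6 h and 2910, 3009 and 2924 at 12 h. No arrays overlapped, but the fall lay at the 2-fold limit (log2 −1.04 ± 0.14) and its call was lost without 6 h replicate 1 (log2 −0.89). The homolog of TSI-1 (LOC100245065) fell from 6691, 4621 and 5765 to 2460, 2301 and 1765 (log2 −1.39), near its control values of 1615 to 2123.

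Of the regulators, 3 of the 8 WRKY probe sets found by word search reversed and none was called higher. The study lists more WRKY factors than these 8. By its folds over the control, factors outside the 8 went both ways between 6 h and 12 h. WRKY proteins are transcription factors of defence responses. The factor with the symbol WKRY had 270, 103 and 188 in the control, 1830, 1965 and 1796 at 6 h and 883, 913 and 578 at 12 h (log2 −1.26 ± 0.31, adjusted p = 0.014). Its arrays did not overlap, but its call was lost without 12 h replicate 3 (adjusted p = 0.052, log2 −1.05), and the call of its second probe set, with a log2 change of −1.16, without 5 of the 6 arrays in turn (adjusted p = 0.056 to 0.099, log2 −0.93 to −1.25). The bZIP factor LOC100248302, which binds G-box promoter elements, had 189.6, 178 and 201 in the control, 477, 597 and 466 at 6 h and 205, 183 and 192 at 12 h, a fall of 2.64-fold (log2 −1.40 ± 0.12). It rose and returned within 12 h. Of 16 probe sets of the MAP kinase cascade, which relays stress signals, 10 were higher at 6 h and 8 at 12 h than the control. Of all probe sets, 11.9% and 14.7% were. None of the 16 was called between the times. MAP kinase 3 (LOC100263976) had 221 to 664 in the control, 4249 to 4674 at 6 h and 3905 to 4872 at 12 h.

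At the 2-fold limit, reversal after a fall was the course with the fewest probe sets, which did not hold without that limit, where it held 671 and started lower 293. A vacuolar invertase (LOC100256970), which splits sucrose in the vacuole, had 215, 286 and 610.5 in the control, 49.4, 42.7 and 42.1 at 6 h and 379, 319 and 364 at 12 h. It fell and came back to the control range, with a rise of 7.91-fold after 6 h (log2 2.98 ± 0.31, adjusted p = 0.00018). A pyruvate dehydrogenase kinase (LOC100266622), which switches off the entry of pyruvate into the citric acid cycle, had 179, 187 and 241, then 41.8, 54.5 and 36.8, then 189.9, 141 and 215. L-idonate dehydrogenase (LOC100232980), the enzyme of tartaric acid synthesis in grape, had 1599, 1697 and 1761 in the control, 678, 663 and 591 at 6 h and 2575, 2188 and 2563 at 12 h. It rose 3.79-fold and ended above the control by a log2 change of 0.53. CIPK03, a kinase controlled by calcium sensors, recovered in part, from 251, 159 and 222 at 6 h to 466, 504 and 657 at 12 h, beside 1670 to 2299 in the control. Of the 34 probe sets of this course, 26 were not called against the control at 12 h and 8 were still lower.

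Several transcription factors and enzymes were not called at 6 h and were called higher at 12 h. NAC1 (LOC100254239), of a family that includes regulators of senescence, had 36, 37.1 and 32 in the control, 59.3, 59.6 and 67.7 at 6 h and 593, 418 and 471 at 12 h. Its 6 h arrays were already above the control (log2 0.83, adjusted p = 0.00056), short of the 2-fold limit. It rose 7.87-fold after 6 h (log2 2.98 ± 0.14, adjusted p = 1.3e-05). An AP2 domain factor (LOC100250476) had 60.3, 83.1 and 46.2 at 6 h, level with the control, and 514, 410.4 and 456 at 12 h. MYB139 (LOC100260318) had 138, 115 and 161 in the control, 64.4, 74.4 and 83.7 at 6 h and 333, 447 and 368 at 12 h. Both rose more than 4-fold, by log2 2.90 and 2.36. A sucrose synthase (LOC100249279), which feeds sucrose into metabolism, had 309, 518 and 161 at 6 h and 3419, 2069 and 2723 at 12 h, a rise of 9.07-fold. A diphosphomevalonate decarboxylase (LOC100251686), which makes the isopentenyl unit of sterols and terpenes, rose from 122, 98.9 and 132 to 497, 439 and 421. Cytosolic glutathione reductase (LOC100254507), which restores glutathione, rose from 747, 730.4 and 756 to 1710, 1680 and 1469 (log2 1.12 ± 0.09). It was the only higher member among 27 antioxidant probe sets, of which 5 were lower. Of the annotated probe sets 3.45% were higher and 6.95% lower.

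Several transporters fell. A group of sulfate transporters, which bring sulfate into cells and between tissues and were chosen after their values were seen, had fallen at 6 h and fell again. LOC100254481 had 778, 878 and 652 in the control, 68.4, 60.1 and 82.8 at 6 h and 15.6, 18.7 and 14.5 at 12 h (log2 −2.11 ± 0.16). LOC100256148 had 1518, 1549 and 1338, then 313, 291 and 390.4, then 83, 86.7 and 68. Sulfate transporter 3;1 (LOC100245945) had a log2 change of −2.44 ± 0.31 after 6 h. A peptide transporter (LOC100263850) fell from 474, 277 and 427 to 83.6, 95.2 and 80.9. Of 29 sugar and amino acid transporters, 2 were higher and 7 lower, beside 3.45% and 6.95% of the annotated probe sets.

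The tonoplast aquaporin TIP1;1, a water channel of the vacuole, had 450, 497 and 786 in the control, 1002, 1210 and 660.2 at 6 h and 164, 217 and 318 at 12 h. It fell 4.13-fold (log2 −2.05 ± 0.30) and its other probe sets by log2 −1.93 and −1.90. Of 27 pectin enzymes, which loosen or stiffen the cell wall, 7 were lower and none was higher (median log2 −0.47). Beside these counts stand 6.95% lower and 3.45% higher of the annotated probe sets. Catalase (LOC100253859), which destroys the hydrogen peroxide of peroxisomes, had 9384, 8244 and 7681 in the control, 1867, 2089 and 2207 at 6 h and 661, 732 and 740.2 at 12 h. It fell 2.89-fold at the later step (log2 −1.53 ± 0.11). A peroxiredoxin (LOC100250698) fell from 1734, 1475 and 1777 to 500.3, 621 and 359.8. Zeaxanthin epoxidase (ZEP), which turns back the xanthophyll cycle and feeds abscisic acid synthesis, was called lower only after 6 h. It went from 1880, 1790 and 2204 to 798, 873 and 621 (log2 −1.37 ± 0.17). Of 29 probe sets of abscisic acid and dehydration genes, 1 was higher and 5 lower, beside 3.45% and 6.95% of the annotated probe sets.

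At the 2-fold limit, few probe sets of DNA repair and of the clock were called. Beside them stand 3.45% higher and 6.95% lower of the annotated probe sets. In lists this small, the 2-fold counts say nothing particular about these genes. Of 9 DNA repair and photolyase probe sets none was called, and the median log2 change was 0.21. At any fold 4 passed as higher, beside 15.6% of all probe sets. RAD23 (LOC100245820), which takes part in nucleotide excision repair, had 1020, 1036 and 1039 at 6 h and 1511, 1376 and 1218 at 12 h, a log2 change of 0.40 (adjusted p = 0.016). A photolyase-like blue-light receptor (PHR2, LOC100253809) stayed down, with 2285 to 2798 in the control, 681 to 815 at 6 h and 587 to 725 at 12 h. Of 16 clock and light signalling probe sets, 1 was lower and none was higher (median −0.25). At any fold 7 passed as lower and 1 as higher, beside 13.1% and 15.6% of all probe sets. The called member was a CONSTANS-like B-box protein (LOC100244502), with 2243, 2135 and 1767 at 6 h and 1040, 1015 and 919 at 12 h. Its arrays did not overlap, but its call was lost without 6 h replicate 1 (log2 −0.97) and without 12 h replicate 3 (log2 −0.99).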

How the data were processed

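Total RNA of 3 replicates of 6 leaves each at 0, 6 and 12 h was hybridized to 9 Affymetrix arrays. Per the labels and the study's methods, the authors adjusted the background and quantile-normalized the arrays by RMA and deposited 1 linear intensity for each of 16601 probe sets. Here log2 was taken, 165 control probe sets were left out, and all 3 groups were fitted with lmFit and eBayes (limma 3.58.1, R 4.3.3) without a replicate block, with 6 residual and 3.42 prior degrees of freedom. P-values were adjusted by Benjamini and Hochberg over 16436 probe sets. The number of arrays limits the precision. The fit was tested on simulated data. The authors' deposited comparison tables give annotation for part of the probe sets, and how these were chosen is not given in the sources used here. Of 10471 annotated probe sets, 802 were named by gene title, 3496 by the array's target description, 1125 by the study's lists (for printing only), and 5048 by none. The tables' SAM score, q-value and fold change were not used. Lists were drawn by word search, count probe sets and not genes, and take in genes that only share a word.

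The named probe sets are the 15 highest and 15 lowest changes with non-overlapping arrays, the 8 largest of each course, up to 4 called members in each direction and the 3 brightest of each list. Others were added after their values were seen. The text shows only part of these. Left out are some of the largest changes, among them a lipid transfer protein (log2 −4.33) and a putative miraculin (log2 4.82). The members and lists were chosen with earlier results of these data known. Alternatives were no fold limit, unadjusted p, the SAM statistic, the 6 arrays alone, a robust trend, a filter on dim probe sets (mean log2 under 5), 3 other scalings, gene-specific probe sets, averaging by symbol, folds of linear means, a replicate block and leaving out each array. Summaries and figures used Python 3.11.15, numpy 2.4.6, pandas 2.3.3 and matplotlib 3.10.9.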

Additional observations from a re-analysis of the deposited data

How the results depend on the processing

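Without the fold limit, 2561 probe sets were called higher and 2158 lower between the times, so that 54.3% of calls were higher in place of 384 of 1130. The courses then held 872 (went on, higher), 1289 (went on, lower), 527 (reversed, higher at 6 h), 671 (reversed, lower at 6 h), 848 (started, higher) and 293 (started, lower) probe sets, since small changes were counted. With the hybridization controls aligned, 56 probe sets reversed after a fall in place of 34, and the cause was not tested. All other counts of calls and of courses, started lower among them, stayed within 1.5 times under the alternatives that were run. No named probe set that was called changed sign. This does not cover the counts within gene lists or the named probe sets without a call. Over the 9 fits that left out 1 array, 363 to 435 probe sets were higher and 670 to 780 lower, 107 to 136 went on higher and 379 to 420 lower, 88 to 123 reversed after a rise and 35 to 44 after a fall, and 150 to 191 started higher and 161 to 245 lower. Of 233 named called probe sets, 43 lost the call when some array was left out, most in the fit without 12 h replicate 3, where 27 did.

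The labels number the replicates alike at each time. The deviations of same-numbered arrays of 6 h and 12 h correlated at −0.0671, −0.139 and −0.162, and those of differently numbered arrays at −0.111 to 0.246. These values gave no sign of a pairing. They cannot exclude one, since deviations from a mean of 3 arrays depend on each other. With the replicate number as a block, 379 were called higher and 739 lower, and the courses held 121, 402, 104, 34, 159 and 197, in the order above with started lower last. Centring the arrays in another way moved the median of all probe sets by at most 0.02. Signals near the array's background or near saturation can understate a change.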
